A study of Homo sapiens with 18 samples.

Results

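The 51 genes described here carry cells through mitosis: they run the spindle checkpoint, build kinetochores, move and condense chromosomes, release sister chromatids from cohesin and divide the cell. They were found by gene symbol among the 58735 genes counted, all 51 with 1 row each, and all 51 passed the filter on low counts in every comparison. Gene expression was measured by RNA sequencing in A549 and H358, established human lung adenocarcinoma cell lines, 3 libraries a group and 18 in all. The groups were A549 with RAD21 knocked down by a short hairpin RNA (shRAD21) beside its hairpin control (shNC), H358 shRAD21 beside H358 shNC, and A549 overexpressing RAD21 (RAD21OE) beside the control of that experiment, labelled EV. The labels give the controls the genotype wild type and date the batch of the knockdown to April and that of the overexpression to July. A single hairpin name stands for the knockdown. Nothing says that the 3 libraries of a group came from separate cultures. Each p-value thus sets a difference only against the spread of these libraries, and that spread may be technical. For the knockdown it was estimated over the 12 libraries of both lines together.

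In mitosis, cyclin B with its kinase CDK1 drives condensation of chromosomes and assembly of the spindle. The checkpoint proteins hold the anaphase-promoting complex inactive until every kinetochore is attached to microtubules. The complex then acts with CDC20 to destroy cyclin B and securin, which frees separase to cut RAD21, the kleisin subunit of cohesin, so that sister chromatids part. RAD21 is thus the substrate of the pathway these genes serve, and cohesin also folds interphase chromatin into loops. Most of the 51 genes are transcribed in G2 and mitosis, and their RNA is a common measure of how many cells in a culture are dividing. In bulk RNA a larger share of cells in G2 and mitosis and more RNA per such cell cannot be told apart.

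The libraries held 15155077 to 19277568 counts in the knockdown and 13024640 to 14276335 in the overexpression. Levels are given in CPM, the reads of a gene relative to those of all genes tested in the library, normalised between libraries. RAD21 had 129, 132 and 101 CPM in A549 shRAD21, against 257, 253 and 255 in A549 shNC. In H358 it had 379, 427 and 433 CPM in shRAD21, against 569, 589 and 603 in shNC. It had 1520, 1501 and 1306 CPM in RAD21OE, against 195, 209 and 194 in EV, so the labels and the targeted gene go together in all 18 libraries. The fold changes of RAD21 were 0.474, 0.703 and 7.23, and the two-sided exact permutation p was 0.1 each time, the smallest that 3 against 3 allows. Library 3 of A549 shRAD21 and library 3 of RAD21OE stood apart from the other libraries of their groups: over all genes tested their median absolute log2 difference from them was 0.304 to 0.313 and 0.231 to 0.269, against at most 0.146 for every other pair of libraries of a group. The epithelial markers KRT8, KRT18, KRT19 and EPCAM summed to 11100 to 13800 CPM in A549 shRAD21 and 7050 to 7480 in A549 shNC, and to 10300 to 13500 CPM in RAD21OE and 8170 to 8370 in EV. Their part in the results was not tested. In H358 the epithelial markers summed to 4010 to 4190 CPM in shRAD21 and 4000 to 4320 in shNC. Leukocyte markers summed to at most 0.767 CPM in any library, and endothelial markers to at most 5.66. The fibroblast markers COL1A1, DCN and LUM summed to 15.4 to 30.2 CPM in A549 libraries and 36.8 to 47.4 in H358 libraries.

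Knockdown of RAD21 in A549 went with more RNA of many mitotic genes. Of the 51 genes 25 were higher in shRAD21 and 1, CDC25B, was lower at an adjusted p under 0.05, which is 49% and 1.96% of them. Among all 18939 genes tested 14.4% were higher and 10.9% lower. The median log2 fold change over the 51 genes was 0.21, against 0.00 over all genes tested, and 45 of the 51 had a positive value. No change reached 2-fold: the values lay between -0.31 for CDC25B and 0.54 for ANLN. The ranges of the groups did not overlap for 25 genes higher in shRAD21 and 1 lower, against 18.3% and 14.4% of all genes. Without library 3 of shRAD21 the counts were 36 higher and 2 lower, beside 23.2% and 19.9% of all genes. Leaving out any other A549 library left 14 to 16 higher: 14 without library 1 and 16 without library 2 of shRAD21, and 15, 16 and 14 without library 1, 2 or 3 of shNC, beside 10.2% to 11% of all genes. BUB3, CENPE, CENPF, KIF11 and PTTG1 were called in none of those 5 fits. With the 6 A549 libraries alone 8 were higher and 1 lower, beside 10.3% and 8.89% of all genes.

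In H358, where RAD21 had a fold of 0.703, 3 of the 51 genes were higher in shRAD21 and 0 were lower. The 3 were BIRC5, CCNB1 and GTSE1, and they make up 5.88% of the genes, close to the background of 3.78% higher among all genes, while 4.62% of all genes were lower. The median log2 fold change was 0.06, against 0.00 over all genes, and 39 of the 51 values were positive. The groups did not overlap for 17 genes higher in shRAD21 and 2 lower, against 18% and 18.1% of all genes. With the 6 H358 libraries alone, 14 were higher and 2 lower, beside 12.7% and 13.3% of all genes. Although edgeR called 0 lower, 1 gene with a negative value (SGO2) had an unadjusted p under 0.05, and DESeq2 and limma-voom also called 0 lower. Leaving out any 1 of the 6 H358 libraries left 0 or 1 higher, the 1 being BIRC5, beside 1.78% to 1.98% of all genes.

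Overexpression of RAD21 in A549 gave 10 genes higher in RAD21OE and 1 lower, KIF11. The 10 were HJURP, BUB1B, CDC20, AURKB, CKS1B, PLK1, AURKA, CKAP5, TACC3 and UBE2C. They are 19.6% of the 51 genes, beside 14.1% of the 15462 genes tested, and the lower gene is 1.96%, beside 13.7%. The median log2 fold change was 0.06, against -0.01 over all genes, and 27 values were positive and 24 negative. The groups did not overlap for 13 genes higher in RAD21OE and 6 lower, against 22.9% and 22.6% of all genes. Without library 3 of RAD21OE 15 were higher and 2 lower, beside 17.9% and 16.9% of all genes. Without library 1 of EV 5 were higher, and without library 2 of EV 6, beside 7.61% and 7.02% of all genes, and KIF11, AURKB, TACC3 and UBE2C were called in neither fit.

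Most of the genes called in one A549 experiment were not called in the other. HJURP was higher in shRAD21 and in RAD21OE, and KIF11 was higher in shRAD21 and lower in RAD21OE. CCNB1 and GTSE1 were higher in shRAD21 of both lines. A further 21 genes were higher and CDC25B was lower in the A549 knockdown alone, 9 were higher in the overexpression alone, BIRC5 was higher in H358 alone, and 15 were called in no comparison. A call in one comparison and not in another does not show that they differ, and only the difference between the knockdowns of the 2 lines was tested, as given further on.

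**Figure D1:**
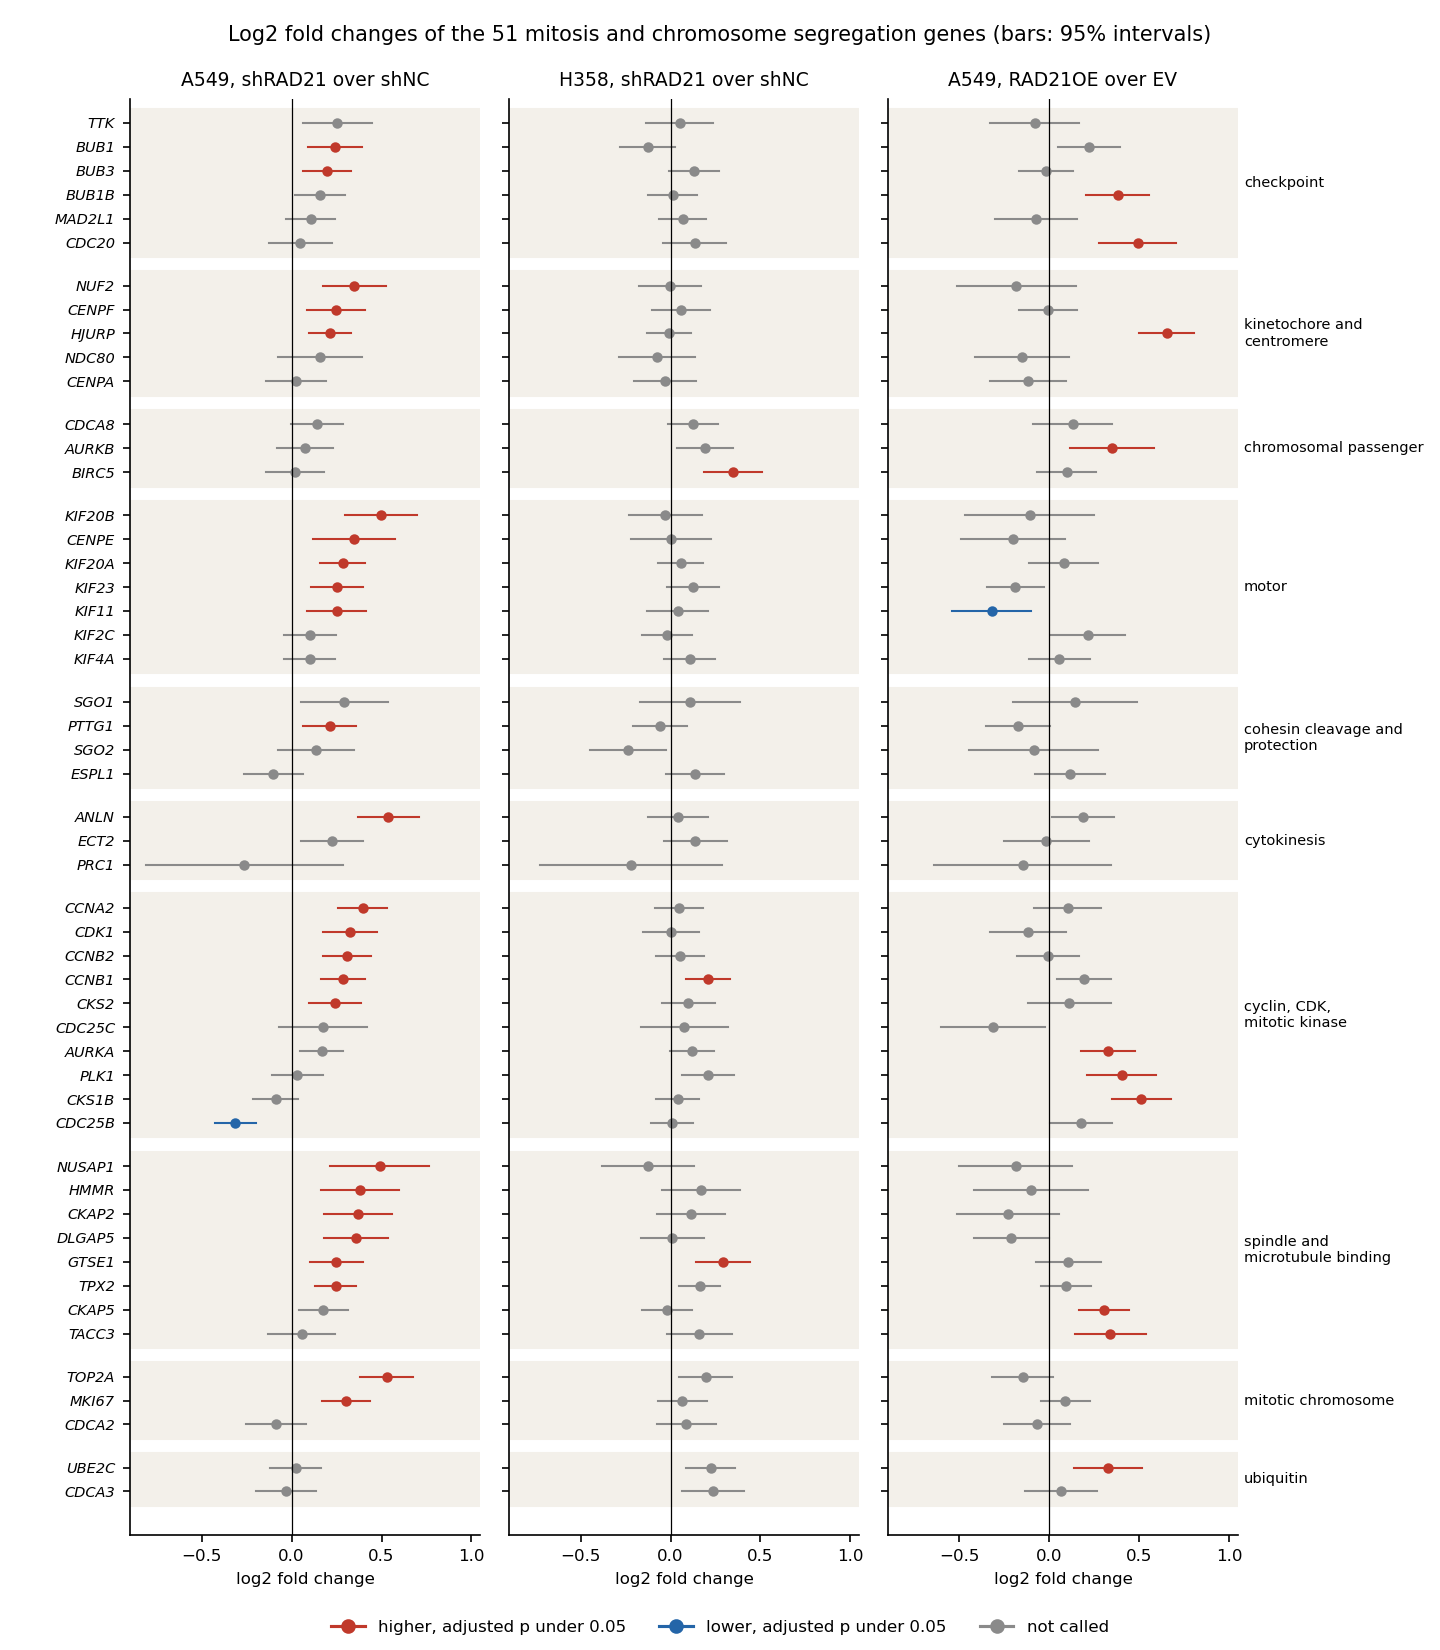
Log2 fold change (x axis) of each of the 51 genes (rows, grouped by role), with 95% intervals from the standard error of the fit, in A549 shRAD21 over shNC, H358 shRAD21 over shNC and A549 RAD21OE over EV. Red points are higher and blue points lower at an adjusted p under 0.05: 25 and 1 in the A549 knockdown, 3 and 0 in H358, 10 and 1 in the overexpression.

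The median of the 51 genes in each library, as a log2 deviation from the mean of the control libraries, shows how evenly the change was spread. It was 0.27, 0.27 and 0.09 in the 3 A549 shRAD21 libraries, against 0.02, 0.00 and -0.01 in the A549 shNC libraries. Each shRAD21 library had 40 of the 51 genes above the control mean, so library 3 had a smaller median at the same count. In H358 the medians were 0.02, 0.09 and 0.11 in shRAD21, against -0.04, 0.01 and 0.04 in shNC, and library 1 of shRAD21 lay within the range of shNC. In the overexpression they were 0.05, 0.11 and 0.00 in RAD21OE, against 0.01, -0.04 and 0.04 in EV, so 1 of the 3 RAD21OE libraries lay within the range of EV.

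**Figure D2:**
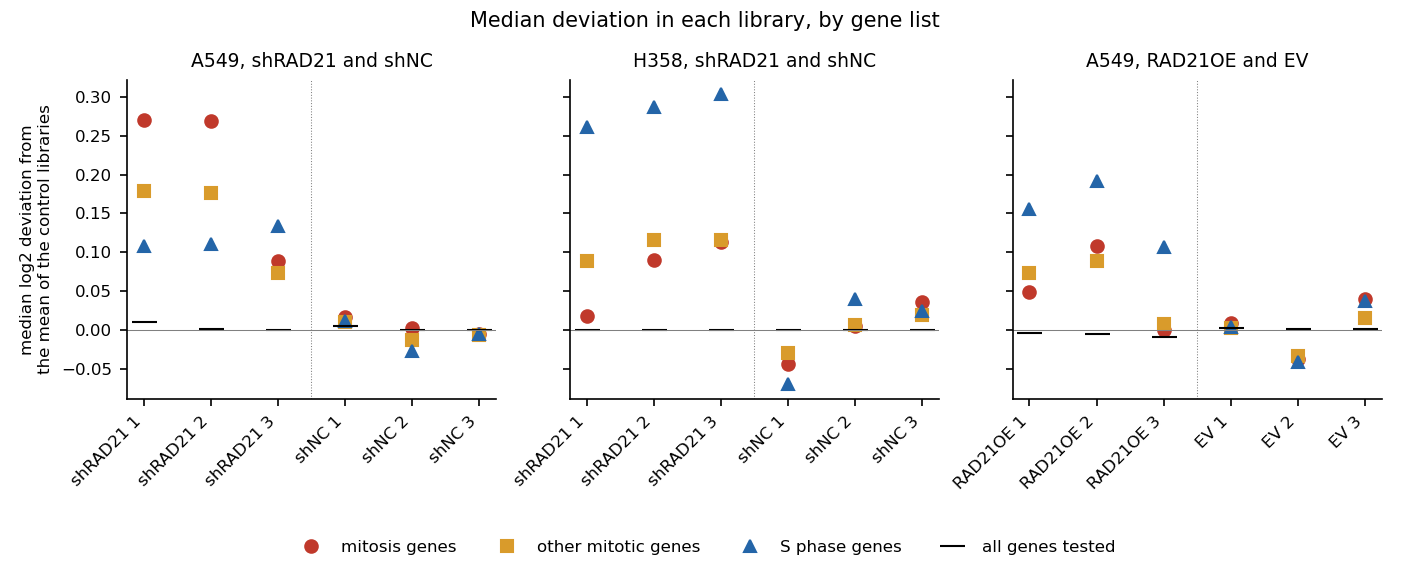
Median log2 deviation from the mean of the control libraries (y axis) in each of the 18 libraries (x axis), treated libraries left of their controls, for the 51 mitosis genes, 104 other mitotic genes, 34 S phase genes and all genes tested. The A549 shRAD21 libraries lie at 0.27, 0.27 and 0.09 for the 51 genes, above all 3 shNC libraries, while in H358 the S phase genes lie highest, at 0.26 to 0.30.

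Promoter sequence was read for 44 of the 51 genes. Many promoters of G2 and mitosis genes carry the cell cycle homology region (CHR, letters TTTGAA), which the DREAM complex occupies in resting cells and B-MYB with MuvB and FOXM1 in dividing cells, beside CCAAT boxes bound by NF-Y. RefSeq promoters on GRCh38.p14, from 250 bases before to 50 bases after the transcription start, were matched by symbol, with 55 promoters in all because 7 genes have several. Both motifs were searched on both strands in these exact letters only, so a site spelled otherwise would be missed. Only an end base can belong to both motifs, each was counted on its own, and a match is a string of letters and not a measured site. Distances are counted from the RefSeq start, which can differ from that in GENCODE 29.

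A CHR lay in the promoters of 31 of the 44 genes, 70.5%, against 14% of the 11964 tested genes with a promoter in the table and 10% of the S phase genes. CCAAT lay in 36 of the 44, 81.8%, against 42.5% of the tested genes and 56.7% of the S phase genes. Both lay in 1 promoter for 27 genes, 61.4%, against 5.8% of tested genes. A CHR between 80 bases before and 20 after the start was present for 25 genes, 56.8%, against 4.6% of tested genes. The shares were also raised among other mitotic genes, of which 86 had a promoter entry. Of these 43% held a CHR, 62.8% CCAAT, 24.4% both in 1 promoter and 20.9% a CHR in that stretch near the start. Of the 47 CHR matches in the 55 promoters, 13 began 21 to 30 bases before the start, and of the 86 CCAAT matches 14 began 51 to 60 bases before it. By role, a CHR was found for all 5 kinetochore genes, 4 of 7 motors, 6 of the 9 matched cyclin and kinase genes and, of the 4 cohesin cleavage and protection genes, for ESPL1 alone.

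CCNB2 is shown first because its promoter has the arrangement in full, on chromosome 15 in the 250 bases before the start, written as chr15:59104896-59105145 on the plus strand of GRCh38.p14. Capitals mark 4 CCAAT boxes in the forward direction and then the CHR, 29 bases before the start.
CCNB2: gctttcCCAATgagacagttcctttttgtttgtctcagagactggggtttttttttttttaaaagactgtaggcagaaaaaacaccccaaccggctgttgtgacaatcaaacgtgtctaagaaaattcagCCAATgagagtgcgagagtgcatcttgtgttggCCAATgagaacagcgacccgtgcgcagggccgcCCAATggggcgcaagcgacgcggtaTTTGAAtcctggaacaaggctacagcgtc

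Shorter stretches follow for genes called in the A549 knockdown, in the overexpression or in neither, each 24 bases before the CHR to 10 bases after it on the strand of the gene, with the CHR in capitals (TTCAAA where it lies on the other strand).
ANLN, chr7:36389818-36389857, plus strand, 20 bases before the start, higher in A549 shRAD21: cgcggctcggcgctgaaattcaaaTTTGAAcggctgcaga
MKI67, chr10:128126437-128126476, minus strand, 29 bases before the start, higher in A549 shRAD21: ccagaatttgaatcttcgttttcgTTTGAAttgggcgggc
HMMR, chr5:163460580-163460619, plus strand, 28 bases before the start, higher in A549 shRAD21: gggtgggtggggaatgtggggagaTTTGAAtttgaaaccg
KIF23, chr15:69414270-69414309, plus strand, 55 bases before the start, higher in A549 shRAD21: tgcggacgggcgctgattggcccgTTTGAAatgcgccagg
KIF11, chr10:92593078-92593117, plus strand, 28 bases before the start, higher in A549 shRAD21 and lower in RAD21OE: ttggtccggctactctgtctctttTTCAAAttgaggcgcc
HJURP, chr2:233854631-233854670, minus strand, 111 bases before the start, higher in A549 shRAD21 and RAD21OE: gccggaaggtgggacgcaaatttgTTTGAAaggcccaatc
CDC20, chr1:43358892-43358931, plus strand, 65 bases before the start, higher in RAD21OE: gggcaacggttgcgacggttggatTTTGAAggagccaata
CKS1B, chr1:154974627-154974666, plus strand, 30 bases before the start, higher in RAD21OE: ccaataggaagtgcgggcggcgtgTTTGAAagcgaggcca
PLK1, chr16:23678836-23678875, plus strand, 29 bases before the start, higher in RAD21OE: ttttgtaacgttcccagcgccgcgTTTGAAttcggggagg
ESPL1, chr12:53268244-53268283, plus strand, 31 bases before the start, not called: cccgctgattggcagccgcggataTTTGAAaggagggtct
In 7 of these 10 the CHR shown lies 20 to 31 bases before the start, and these 7 include genes higher in A549 shRAD21, genes higher in RAD21OE and ESPL1, which was called in no comparison. MKI67, HMMR and ANLN each hold a second CHR close by, left in lower case here.

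**Figure D3:**
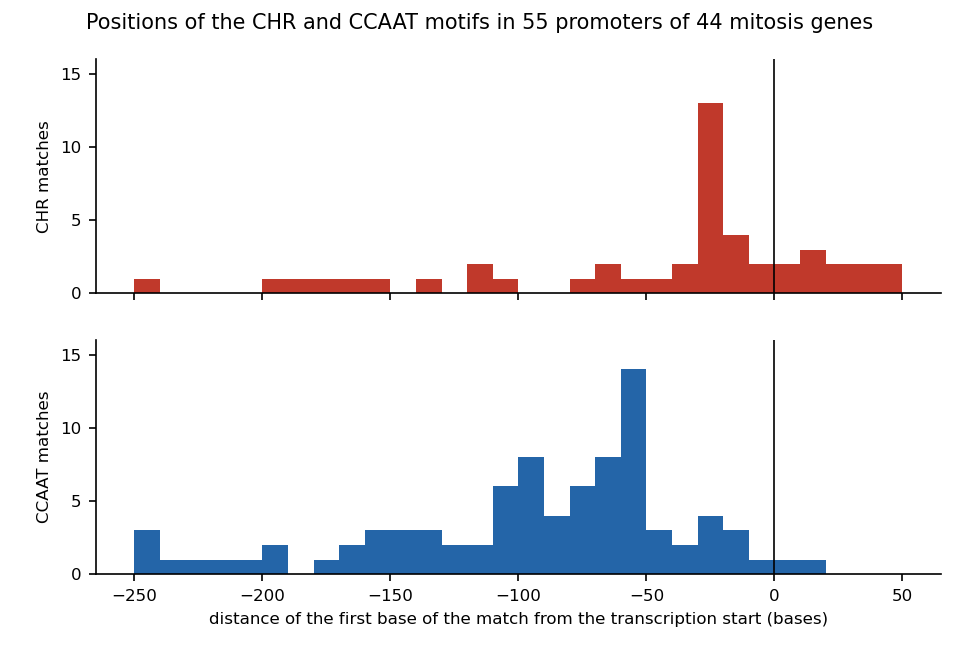
Number of matches (y axis) to the CHR and the CCAAT motif in bins of 10 bases along the 55 promoters of 44 of the genes, by the distance of the first base of the match from the transcription start (x axis). The 47 CHR matches peak at 21 to 30 bases before the start with 13, and the 86 CCAAT matches at 51 to 60 bases before it with 14.

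Calls were also set beside the CHR, with no test, where "without" means no match to the exact letters TTTGAA on either strand. Among the A549 knockdown calls 16 of the 31 genes with a CHR and 7 of the 13 without were higher, and the median log2 fold changes were 0.22 with and 0.24 without. In H358 1 of 31 and 1 of 13 were higher, with medians of 0.06 and 0.05. In the overexpression 6 of 31 and 2 of 13 were higher, and the medians were -0.01 with a CHR and 0.14 without.

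The spindle checkpoint genes are BUB1 and BUB1B, kinetochore kinase and pseudokinase of the checkpoint, BUB3, which brings both to kinetochores, MAD2L1, which inhibits CDC20, TTK, the kinase that starts the signal, and CDC20 itself. In the A549 knockdown 2 of the 6 were higher. BUB1 had 169, 174 and 140 CPM in shRAD21, against 133, 143 and 132 in shNC, a log2 fold change of 0.24 (SE 0.08, adjusted p = 0.0285). Its groups overlapped, because library 3 of shRAD21 lay under library 2 of shNC. BUB3 had 210.4, 212 and 179.8 CPM in shRAD21, against 176, 174 and 177 in shNC (0.20, SE 0.07, adjusted p = 0.0444), with no overlap. TTK, at 0.25, and BUB1B, at 0.16, were not called (adjusted p 0.0666 and 0.119), nor were MAD2L1 at 0.11 and CDC20 at 0.05.

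The overexpression moved other members of the checkpoint. CDC20 had 137, 138 and 174 CPM in RAD21OE, against 110.4, 93.8 and 115 in EV, a log2 fold change of 0.49 (SE 0.11, adjusted p = 0.00568). BUB1B had 57.4, 59.5 and 58.1 CPM in RAD21OE, against 41.8, 45.7 and 47.2 in EV (0.38, SE 0.09, adjusted p = 0.00835). All 3 RAD21OE libraries lay above all EV libraries for both genes. BUB1 had 85.5, 100.2 and 87.5 CPM in RAD21OE, against 78.8, 76.7 and 79.3 in EV, which was not called (0.22, adjusted p = 0.0798). In H358 none of the 6 was called, and the smallest adjusted p was 0.28, of BUB3, with 109, 116 and 114 CPM in shRAD21, against 99.8, 103 and 106 in shNC.

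Kinetochores assemble on the centromeric histone CENPA, which HJURP deposits. NUF2 and NDC80 belong to the complex that grips microtubules, and CENPF is a large protein of the outer kinetochore. HJURP had 215, 212 and 219 CPM in A549 shRAD21, against 188, 184 and 185 in A549 shNC (log2 fold change 0.21, SE 0.06, adjusted p = 0.0138). It had 190.5, 199 and 212 CPM in RAD21OE, against 126, 124 and 132 in EV (0.65, SE 0.08, adjusted p = 1e-04), the largest fold among the 51 genes in the overexpression, 1.57. In H358 its level was 74.6, 72.7 and 77.7 CPM in shRAD21, against 75.3, 78.9 and 71.6 in shNC, with overlapping groups and an interval of the log2 fold change from -0.13 to 0.12. HJURP thus lay higher in A549 both with less and with more RAD21 than in the controls of each experiment. Its call in the knockdown was lost in 4 of 15 alternatives, no filter and the 6 A549 libraries alone among them (adjusted p up to 0.121). Its call in the overexpression was kept in all 15.

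NUF2 had 45.9, 46.0 and 37.2 CPM in A549 shRAD21, against 34.04, 34.4 and 32.95 in A549 shNC (0.35, SE 0.09, adjusted p = 0.00806). CENPF, at 363, 389 and 300.3 CPM in shRAD21, against 296, 288 and 303 in shNC, was also called (0.25, adjusted p = 0.0328), although library 3 of shRAD21 lay below library 3 of shNC. NDC80, which pairs with NUF2, was not called (0.16, adjusted p = 0.37), nor was CENPA (0.03, adjusted p = 0.881). In the overexpression NUF2, NDC80, CENPA and CENPF had values between -0.18 and -0.01, none called. In H358 the smallest adjusted p of these genes was 0.734, of CENPF, with 223, 242 and 256 CPM in shRAD21, against 217, 239 and 236 in shNC.

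The chromosomal passenger complex corrects faulty attachments, with AURKB as its kinase and BIRC5 (survivin) and CDCA8 (borealin) as the subunits that place it on chromosomes. None of the 3 was called in the A549 knockdown, where the smallest adjusted p was that of CDCA8: 51.1, 48.8 and 55.3 CPM in shRAD21, against 47.8, 44.96 and 48.04 in shNC (0.14, adjusted p = 0.179). In H358 BIRC5 had 223, 226 and 236 CPM in shRAD21, against 172, 183 and 183 in shNC (0.35, SE 0.08, adjusted p = 0.0134). This was the largest positive change of the 51 genes in H358, and its groups did not overlap. AURKB had 88.1, 82.9 and 81.0 CPM in H358 shRAD21, against 74.2, 75.1 and 71.5 in H358 shNC, also without overlap and not called (0.19, adjusted p = 0.157). AURKB rose in the overexpression, with 68.2, 85.5 and 96.0 CPM in RAD21OE, against 67.7, 59.2 and 69.4 in EV (0.35, SE 0.12, adjusted p = 0.0439). Library 1 of RAD21OE lay within the range of EV for AURKB. The call was lost in 6 of its 15 alternatives, limma-voom and the filter of 10 CPM among them, and its adjusted p was highest, 0.186, without library 2 of EV.

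The motors of the kinesin family slide, carry or end microtubules: KIF11 pushes spindle poles apart, CENPE brings chromosomes to the middle of the spindle, KIF23 and KIF20A organise the central spindle, KIF20B acts in cytokinesis, KIF4A acts on chromosomes and the midzone, and KIF2C takes microtubules apart. In the A549 knockdown 5 of the 7 were higher and 0 lower, and all 7 values were positive. KIF20B had 108, 115 and 80.6 CPM in shRAD21, against 68.3, 71.1 and 76.4 in shNC (0.50, SE 0.10, adjusted p = 0.00148). KIF20A had 103, 101 and 103 CPM in shRAD21, against 80.6, 88.4 and 82.8 in shNC (0.28, SE 0.06, adjusted p = 0.00289). KIF20A was as high in library 3 of shRAD21 as in the others, and KIF20B was lowest there. KIF23 and KIF11 (both 0.25) and CENPE (0.35) were also higher, at adjusted p of 0.0166, 0.0358 and 0.0338, and the groups of CENPE overlapped. KIF2C and KIF4A (both 0.10) were not called. KIF4A shares much of its sequence with the retrogene KIF4B, and the counting could split reads between them.

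KIF11 was the gene with opposite calls in the 2 A549 experiments. It had 221, 235 and 181 CPM in shRAD21, against 176, 180.5 and 179.8 in shNC, and 93.5, 96.9 and 70.2 CPM in RAD21OE, against 107, 105 and 113 in EV. The lowest shRAD21 library lay just above the highest shNC library, and all RAD21OE libraries lay below EV. The log2 fold change in the overexpression was -0.32 (SE 0.11, adjusted p = 0.0461), and the fall was not called in any fit that left out an EV library. KIF23 had 128, 123 and 114 CPM in RAD21OE, against 138, 136 and 143 in EV, and was not called (-0.19, adjusted p = 0.0928). In H358 no motor was called, and all 7 values lay between -0.03 and 0.13, with the smallest adjusted p of 0.339 for KIF23, at 112, 123 and 122 CPM in shRAD21, against 106, 108 and 114 in shNC.

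**Figure D4:**
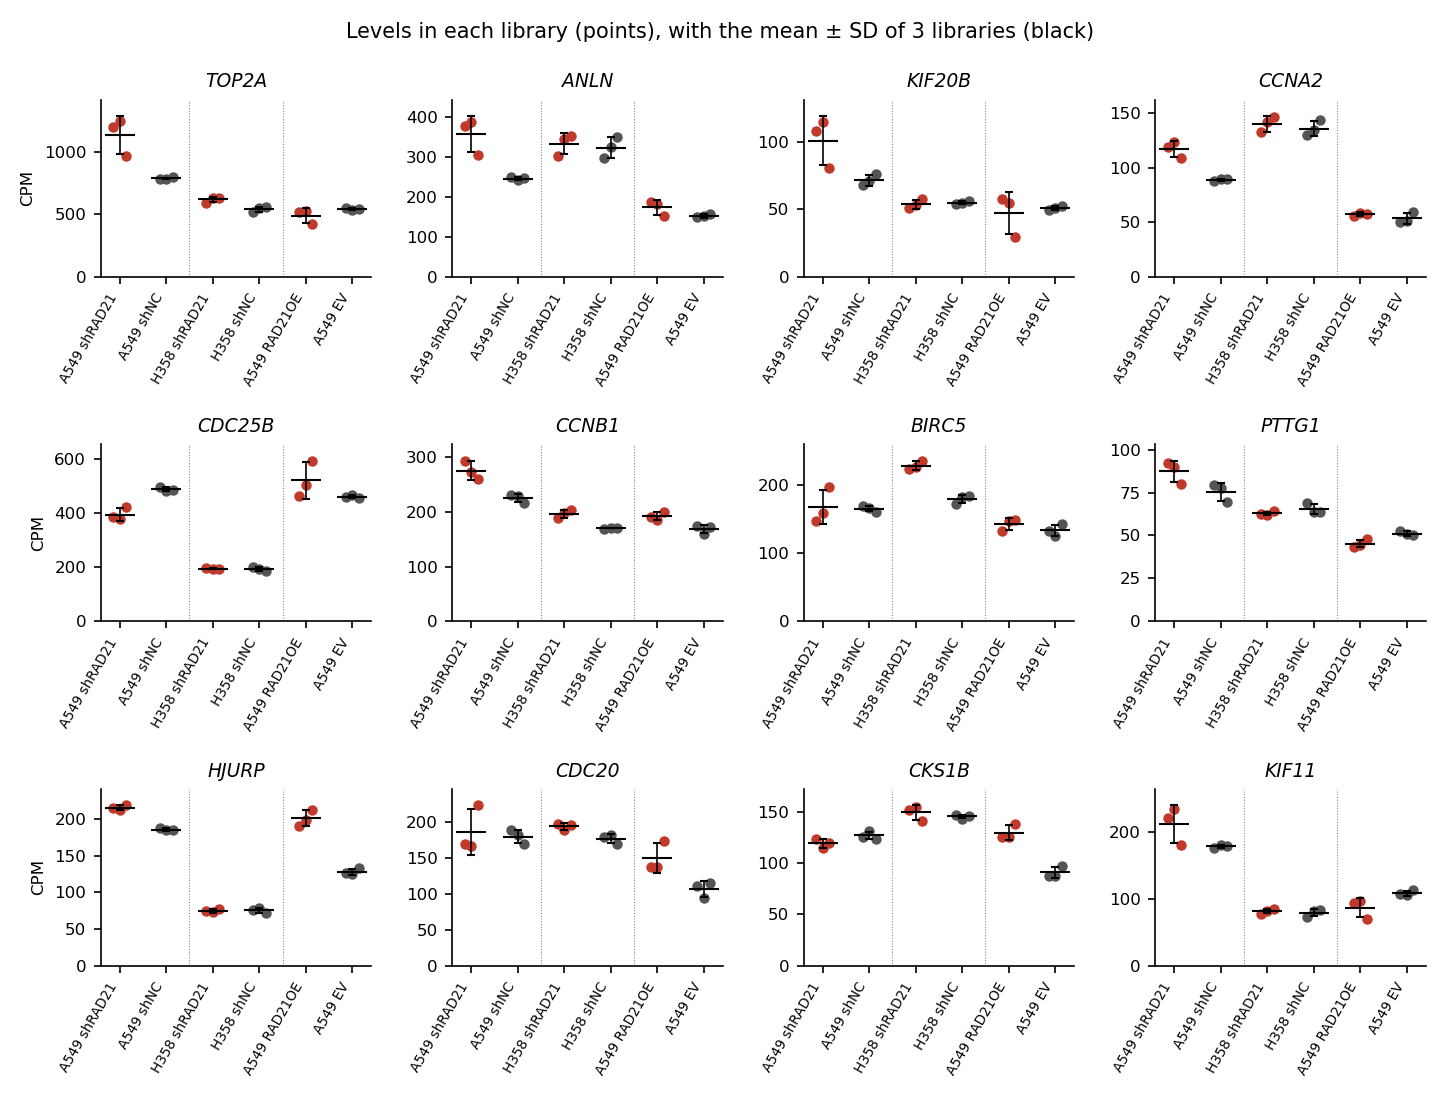
Level in CPM (y axis, from 0) of 12 of the genes in each library (points), with the mean ± SD of the 3 libraries of a group in black, and each treated group (red) left of its control (grey). TOP2A, ANLN, KIF20B and CCNA2 lie above shNC in A549 shRAD21, BIRC5 lies above shNC in H358, and HJURP, CDC20 and CKS1B lie above EV in RAD21OE.

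Separase (ESPL1) is the protease that cuts RAD21 at anaphase, securin (PTTG1) holds separase inactive until its own destruction, and shugoshins (SGO1 and SGO2) shield cohesin at centromeres from removal. Of these 4 genes only PTTG1 in the A549 knockdown was called. PTTG1 had 92.0, 89.9 and 80.01 CPM in shRAD21, against 79.1, 77.6 and 69.5 in shNC (0.21, SE 0.08, adjusted p = 0.0484). The lowest shRAD21 library lay just above the highest shNC library. PTTG1 resembles PTTG2 and PTTG3P, so reads can be shared among them. In H358 it had 62.7, 62.1 and 64.0 CPM in shRAD21, against 68.8, 63.9 and 63.8 in shNC (-0.06, adjusted p = 0.712), and in the overexpression 43.5, 44.5 and 47.7 CPM in RAD21OE, against 52.4, 50.9 and 49.95 in EV (-0.17, adjusted p = 0.166). In the overexpression the groups did not overlap, although the test did not call the difference. PTTG1 was called lower there with offsets for GC content and length, and without library 3 of RAD21OE.

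ESPL1 was called in none of the comparisons. It had 90.5, 88.3 and 109.6 CPM in A549 shRAD21, against 103, 105 and 101 in A549 shNC (-0.10, adjusted p = 0.404, interval -0.26 to 0.06). Libraries 1 and 2 of shRAD21 lay below every shNC library and library 3 above them, and without library 3 ESPL1 was called lower. In H358 it had 80.6, 83.8 and 86.2 CPM in shRAD21, against 69.7, 80.6 and 77.7 in shNC (0.14, adjusted p = 0.355). In the overexpression it had 58.2, 68.0 and 74.3 CPM in RAD21OE, against 60.7, 61.9 and 62.7 in EV (0.11, adjusted p = 0.419), where RAD21OE lay on both sides of EV.

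SGO1 had 26.4, 28.3 and 23.9 CPM in A549 shRAD21, against 20.1, 21.9 and 22.1 in A549 shNC (0.29, SE 0.12, adjusted p = 0.0903), without overlap and without a call. In H358 it had 7.81, 8.90 and 9.31 CPM in shRAD21, against 7.61, 6.66 and 10.05 in shNC, and in the overexpression 13.3, 12.6 and 10.8 CPM in RAD21OE, against 12.4, 7.96 and 12.9 in EV. Both of these pairs overlapped, and of the exons of SGO1 17.7% overlap a gene on the other strand. SGO2 had 59.0, 61.9 and 42.7 CPM in A549 shRAD21, against 48.5, 48.8 and 51.6 in A549 shNC (0.14, adjusted p = 0.389). In H358 SGO2 had 41.6, 47.3 and 44.1 CPM in shRAD21, all below the 50.4, 51.2 and 55.3 in shNC, and was not called (-0.24, SE 0.11, adjusted p = 0.197). In the overexpression it had 36.1, 37.0 and 19.7 CPM in RAD21OE, against 31.7, 35.1 and 31.8 in EV (-0.09, adjusted p = 0.753), with library 3 far below the others.

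Cytokinesis is served by ANLN (anillin), the scaffold of the contractile ring, ECT2, the exchange factor that switches on RhoA at the division plane, and PRC1, which bundles microtubules of the midzone. ANLN, on chromosome 7 from 36389806 to 36453791 on the plus strand in GENCODE 29, had the largest fold of the 51 genes in the A549 knockdown, 1.45. It had 379, 388 and 305 CPM in shRAD21, against 249, 242 and 247 in shNC (0.54, SE 0.09, adjusted p = 0.00014). All 3 shRAD21 libraries lay above shNC, the third less so. In H358 ANLN had 303, 344 and 352 CPM in shRAD21, against 296, 325 and 349 in shNC (0.04, adjusted p = 0.832), and in the overexpression 187, 181 and 153 CPM in RAD21OE, against 148, 152 and 158 in EV (0.19, adjusted p = 0.13). ECT2 was not called at 317, 335 and 249 CPM in A549 shRAD21, against 253, 251 and 266 in shNC (0.22, adjusted p = 0.068). Library 3 of shRAD21 lay below every shNC library for ECT2, and the others above. PRC1 was counted at only 1.59 to 2.83 CPM in A549 knockdown libraries. Since 57.6% of its exon bases are shared with another gene on the same strand, whose reads the counting may not assign, its level is uncertain.

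Among the cyclins, their kinase and its regulators, 5 of 10 were higher in the A549 knockdown and 1 was lower. CCNA2 (cyclin A2), which acts in S and G2 phase, had 119, 123 and 109 CPM in shRAD21, against 88.1, 89.3 and 89.9 in shNC (0.40, SE 0.07, adjusted p = 0.000359). CDK1, the kinase of mitotic entry, had 171, 183 and 145 CPM in shRAD21, against 135, 135 and 128 in shNC (0.33, SE 0.08, adjusted p = 0.0047). For both genes every shRAD21 library lay above every shNC library. The B cyclins CCNB1 (0.29, adjusted p = 0.00216) and CCNB2 (0.31, adjusted p = 0.00256) and the small CDK-binding protein CKS2 (0.24, adjusted p = 0.0229) were also higher. Its relative CKS1B has processed pseudogenes, to which reads could be lost.

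CDC25B is a phosphatase that activates CDK1 before mitosis, and it moved against the cyclins. It had 384, 376 and 423 CPM in A549 shRAD21, against 498, 484 and 487 in A549 shNC (-0.31, SE 0.06, adjusted p = 0.000652). No shRAD21 library reached shNC. The fall was not called once GC content and length were entered as offsets, where the log2 fold change was -0.09 and the adjusted p 0.175. In H358 CDC25B had 195, 192 and 193 CPM in shRAD21, against 199, 194 and 184 in shNC (0.01, adjusted p = 0.964), and in the overexpression 464, 504 and 595 CPM in RAD21OE, against 459, 467 and 457 in EV (0.18, adjusted p = 0.155). Its relative CDC25C, at 13.2 to 18.8 CPM in the A549 knockdown libraries, was called in no comparison.

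CCNB1 was 1 of the 2 genes higher in both knockdowns, although its call in H358 was lost with the replicate block, without a filter and without each H358 library (adjusted p up to 0.168). It had 294, 272 and 260 CPM in A549 shRAD21, against 231, 229.8 and 217 in A549 shNC, and 188, 198 and 203 CPM in H358 shRAD21, against 169.6, 170.5 and 170.3 in H358 shNC (0.21, SE 0.06, adjusted p = 0.0468). In the overexpression it had 191, 186 and 199 CPM in RAD21OE, against 173, 159 and 172 in EV, not called (0.19, adjusted p = 0.0751). CCNB1 therefore had a positive value and no overlap of groups in all 3 comparisons. PLK1, the kinase that acts from mitotic entry to cytokinesis, came near the threshold in H358, with 123, 135 and 127 CPM in shRAD21, against 112, 112 and 110.4 in shNC (0.21, adjusted p = 0.0935).

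In the overexpression 3 of these 10 genes were higher. CKS1B had 125, 126 and 138 CPM in RAD21OE, against 87.9, 87.8 and 97.3 in EV (0.51, SE 0.08, adjusted p = 0.000886), and in A549 shRAD21 it had 124, 115 and 119 CPM, against 126, 131 and 124 in shNC (-0.09, adjusted p = 0.332). PLK1 had 160.1, 165 and 205 CPM in RAD21OE, against 136, 127 and 137 in EV (0.40, SE 0.10, adjusted p = 0.00905). The kinase of the spindle poles AURKA had 126, 133 and 126 CPM in RAD21OE, against 101, 102 and 104 in EV (0.33, SE 0.08, adjusted p = 0.00771). The groups did not overlap for any of the 3. On knockdown in A549 AURKA had 165, 155 and 157 CPM in shRAD21, against 142, 138 and 145 in shNC, just outside the threshold (0.17, adjusted p = 0.0527), and PLK1 was at 0.03.

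Of 8 proteins that assemble or bind the spindle, 6 were higher in the A549 knockdown and all 8 values were positive. TPX2, which nucleates microtubules and activates AURKA, had 310.4, 307 and 299.5 CPM in shRAD21, against 261, 247 and 265 in shNC (0.25, SE 0.06, adjusted p = 0.00404). DLGAP5, which stabilises kinetochore fibres, had 118, 122 and 90.6 CPM in shRAD21, against 87.4, 83.8 and 86.5 in shNC (0.36, SE 0.09, adjusted p = 0.00661). Both stayed above shNC in all 3 libraries, TPX2 evenly and DLGAP5 less in library 3. CKAP2 (0.37, adjusted p = 0.00859) and NUSAP1 (0.49, adjusted p = 0.0161), which stabilise and bundle microtubules of the spindle, were higher too. So were HMMR (0.38, adjusted p = 0.0177), which acts at spindle poles, and GTSE1 (0.25, adjusted p = 0.0211). NUSAP1 was counted at 11.4, 11.2 and 8.38 CPM in shRAD21, against 6.95, 8.10 and 7.09 in shNC, and 62.2% of its exon bases are shared with another gene on the same strand, so its level is uncertain.

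GTSE1, a microtubule-binding protein that also restrains p53 in G2, was the other gene higher in both knockdowns. In A549 it had 74.6, 79.4 and 87.8 CPM in shRAD21, against 66.4, 70.3 and 66.9 in shNC, and in H358 47.7, 49.8 and 47.2 CPM in shRAD21, against 39.4, 41.2 and 37.7 in shNC (0.29, SE 0.08, adjusted p = 0.0252). It overlapped in neither line, and its call in H358 was lost without a filter and without each H358 library (adjusted p up to 0.129). TPX2 came near the threshold in H358, at 273, 292 and 284 CPM in shRAD21, against 242, 261 and 256 in shNC (0.16, adjusted p = 0.0932). The overexpression moved the microtubule polymerase CKAP5 and its partner TACC3. CKAP5 had 281, 290.3 and 278 CPM in RAD21OE, against 232, 235 and 222 in EV (0.30, SE 0.07, adjusted p = 0.00784). TACC3 had 111, 115 and 141 CPM in RAD21OE, against 95.95, 90.8 and 103 in EV (0.34, SE 0.10, adjusted p = 0.024). On knockdown in A549 neither was called, at 0.18 for CKAP5 and 0.06 for TACC3.

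TOP2A untangles sister chromatids, MKI67 (Ki-67) coats mitotic chromosomes, and CDCA2 recruits a phosphatase to chromatin at mitotic exit. TOP2A, on chromosome 17 from 40388516 to 40417950 on the minus strand, had the smallest adjusted p of the 51 genes in the A549 knockdown. It had 1200, 1246 and 963 CPM in shRAD21, against 781, 786 and 795 in shNC (0.53, SE 0.08, adjusted p = 3.82e-05), a fold of 1.44. MKI67 had 768, 788 and 717 CPM in shRAD21, against 627, 576 and 639 in shNC (0.30, SE 0.07, adjusted p = 0.00315). No shRAD21 library of either gene lay within shNC. CDCA2 was not called (-0.08, adjusted p = 0.509). In H358 TOP2A had 593, 631 and 634 CPM in shRAD21, against 518, 547 and 558 in shNC (0.19, adjusted p = 0.124), and in the overexpression 522, 523 and 421 CPM in RAD21OE, against 547, 535 and 543 in EV (-0.15, adjusted p = 0.221).

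UBE2C, the ubiquitin-conjugating enzyme of the anaphase-promoting complex, was higher in the overexpression, with 61.5, 64.1 and 74.5 CPM in RAD21OE, against 53.97, 50.7 and 55.02 in EV (0.32, SE 0.10, adjusted p = 0.0251). In H358 it had 151, 142 and 140.1 CPM in shRAD21, against 122, 129 and 119.6 in shNC, just outside the threshold (0.22, adjusted p = 0.0556). In the A549 knockdown it had 84.8, 77.6 and 92.1 CPM in shRAD21, against 82.5, 83.7 and 84.2 in shNC (0.02, adjusted p = 0.871). CDCA3, which takes part in the destruction of WEE1, was called in no comparison, and came nearest in H358, with 29.7, 32.5 and 30.3 CPM in shRAD21, against 25.8, 27.9 and 24.8 in shNC (0.24, adjusted p = 0.11).

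Levels per length, as CPM per kilobase of merged exons, put the 51 genes over a wide range. In A549 shRAD21 the median was 26.7, against 22.6 in A549 shNC, and in H358 21.8 in shRAD21, against 20.7 in shNC. In the overexpression, a separate batch whose levels are not compared with the knockdown, it was 16.5 in RAD21OE and 16.6 in EV. TOP2A was the highest in both A549 knockdown groups, at 177 per kilobase in shRAD21 and 122 in shNC. UBE2C was the highest in H358, at 112 in shRAD21 and 96.0 in shNC, and CDC25B was the highest in the overexpression, at 121 in RAD21OE and 107 in EV. Separase was among the lower ones, at 10.8 per kilobase in A549 shRAD21 and 11.6 in shNC.

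The difference between the 2 knockdowns was tested as a contrast of A549 minus H358. Called or not, 37 of the 51 values were positive and 14 negative, and 51.4% of all genes tested had a positive value. The difference was called positive for 6 of the 51 genes and negative for 1, beside 9.94% and 7.61% of all genes tested. The share of 11.8% called positive is thus near the background. The 6 were NUSAP1 (0.61, SE 0.19, adjusted p = 0.0355), KIF20B (0.52, SE 0.15, adjusted p = 0.0195), ANLN (0.50, SE 0.12, adjusted p = 0.00901), BUB1 (0.37, SE 0.11, adjusted p = 0.0267), CCNA2 (0.35, SE 0.10, adjusted p = 0.0197) and TOP2A (0.34, SE 0.11, adjusted p = 0.0369). The difference called negative was that of CDC25B, at -0.32 (SE 0.08, adjusted p = 0.013), which fell in A549 and had a value of 0.01 in H358. In H358 KIF20B had 50.8, 53.3 and 57.4 CPM in shRAD21, against 53.9, 54.7 and 56.2 in shNC, and CCNA2 had 133, 142 and 147 CPM in shRAD21, against 130.2, 135 and 144 in shNC. BUB1 had 109, 116 and 114 CPM in H358 shRAD21, against 120.3, 122 and 128 in H358 shNC, below its control and not called (-0.13, adjusted p = 0.357). NUSAP1 had 11.03, 9.48 and 10.9 CPM in H358 shRAD21, against 12.2, 10.7 and 11.4 in H358 shNC. Leaving out 1 library moved the counts of calls to between 1 and 26 positive and between 1 and 9 negative. Beside these stood 6.38% to 19.6% and 4.76% to 17.9% of all genes. The 26 and 9 were found without library 3 of A549 shRAD21, beside 19.6% and 17.9% of all genes, and ANLN and CDC25B were called in every fit that left out a library. Without library 2 of A549 shRAD21, library 1 of A549 shNC, or 1 of several H358 libraries, ANLN was the 1 gene called with a positive difference. The difference of NUSAP1, the largest, was lost in 13 of its 20 alternatives, and that of TOP2A in 14 of 20, both with the replicate block among them. With offsets for GC content the difference of CDC25B was -0.02 (adjusted p = 0.885). For the other 44 genes the difference was not called. CDK1 (0.32, interval 0.10 to 0.54, adjusted p = 0.0534), NUF2 (0.35, interval 0.11 to 0.60, adjusted p = 0.0606) and BIRC5 (-0.33, interval -0.56 to -0.10, adjusted p = 0.0621) came nearest.

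Base composition ran with the fold changes. The longest transcripts of the 51 genes had a median GC content of 43.7%, against 48.4% over the genes tested in the knockdown. Across the 51 genes Spearman's rho of the log2 fold change with GC content was -0.66 in the A549 knockdown, 0.33 in H358 and 0.58 in the overexpression. Across all genes tested it was -0.33, 0.18 and 0.32, with the same libraries behind every gene, and the genes are not independent replicates. The genes called higher in A549 shRAD21 are mostly those with little GC, such as KIF20B with 34.2% and HMMR with 36.7%. Among those higher in RAD21OE are genes with much GC, CDC20 with 57.9%, TACC3 with 57.8% and PLK1 with 57.1%, but also CKS1B with 43.7%. By library, rho of the deviation with GC over all genes was -0.43, -0.42 and 0.10 in A549 shRAD21, against 0.06, 0.07 and -0.11 in A549 shNC. There libraries 1 and 2 of shRAD21 lay far from shNC, and library 3 lay close to it. In the overexpression rho was 0.05, 0.20 and 0.54 in RAD21OE, against 0.09, -0.175 and 0.12 in EV, with library 3 of RAD21OE the furthest from EV. In H358 it was 0.24, 0.14 and 0.12 in shRAD21, against 0.23, 0.11 and -0.30 in shNC.

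Between the quartiles of the 51 genes' GC content, 40.1% to 49%, lay 6875 genes tested in the knockdown. Of these 18.6% were higher and 6.23% lower in A549 shRAD21, against the 49% and 1.96% of all 51 genes. The 51 include genes outside that range, such as KIF20B with 34.2% and CDC25B with 59.3% GC, so the 2 sets are not matched in GC content. With GC content and exon length entered as offsets for each library, 25 genes were higher and 1 lower in the A549 knockdown, beside 17.1% and 12.1% of all genes. The 1 lower was CKS1B, and CDC25B was no longer called lower. Of the 25 higher, 18 were among the 25 called higher without offsets. BUB1, BUB3, CENPE, CENPF, CKS2, KIF11 and KIF23 were no longer called, and AURKA, AURKB, CDC20, CDCA8, KIF2C, PLK1 and TACC3 were. In H358 14 were then higher and 0 lower, beside 8.72% and 8.52% of all genes, with BIRC5, CCNB1 and GTSE1 among them, and in the overexpression 16 were higher and 1 lower, beside 20.8% and 17.7%. The 1 lower in RAD21OE with the offsets was PTTG1, and the fall of KIF11 was not called. The part of base composition in the fold changes was not tested beyond this.

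**Figure D5:**
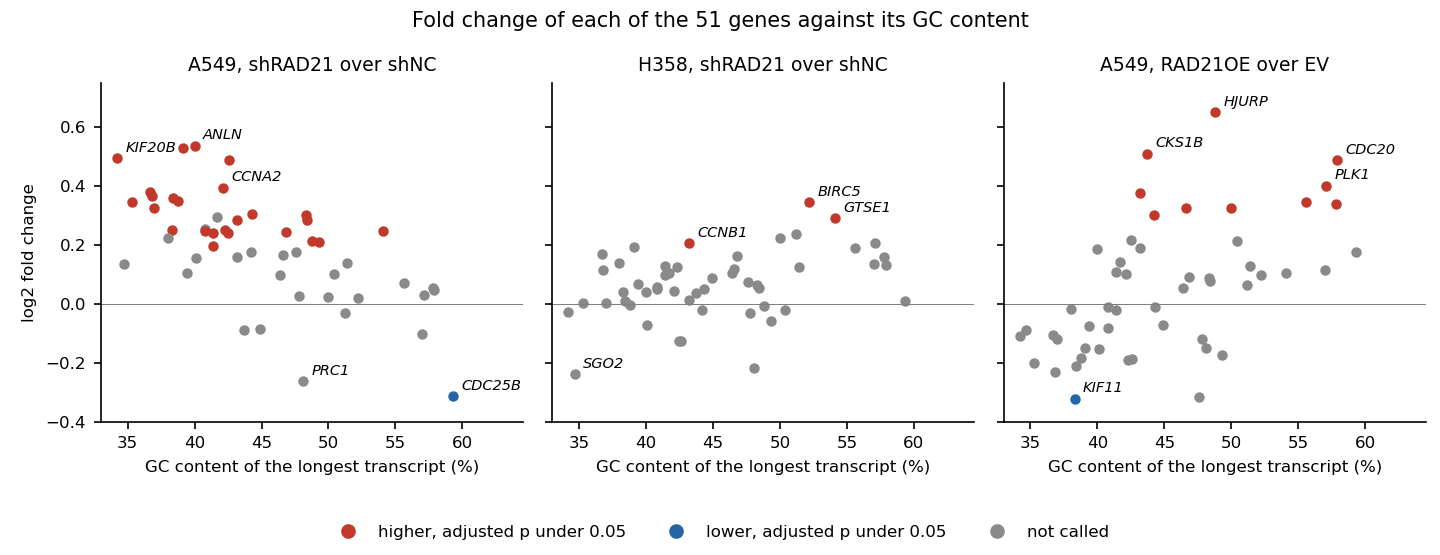
Log2 fold change (y axis) of each of the 51 genes against the GC content of its longest transcript (x axis, %), in the 3 comparisons. Spearman's rho was -0.66 in the A549 knockdown, 0.33 in H358 and 0.58 in the overexpression, and the red and blue points are the genes called higher and lower.

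Transcription factors of mitotic genes did not all move with them in the A549 knockdown. FOXM1 had a mean of 148 ± 17.2 CPM in shRAD21 and 134 ± 2.13 in shNC, and MYBL2 (B-MYB) 215 ± 46.7 CPM in shRAD21 and 195 ± 6.54 in shNC (SD, n = 3 each), both not called at log2 fold changes of 0.14 (adjusted p 0.211 and 0.341 from edgeR). CDKN1A, the CDK inhibitor p21, fell to 169 ± 28.5 CPM in shRAD21, against 252 ± 8.11 in shNC (-0.57, adjusted p = 0.000147). Of 22 genes in this list 4 were higher and 2 lower, 18.2% and 9.09%, near the 14.4% and 10.9% of all genes. E2F7 and E2F8, repressors of the E2F family, rose at 0.51 and 0.44, while the NF-Y subunit NFYC fell with CDKN1A.

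CDKN1A moved the other way in H358, and the difference of A549 minus H358 was -0.95 (SE 0.13, adjusted p = 7.57e-05). It had 71.0 ± 3.13 CPM in shRAD21 and 54.5 ± 3.99 in shNC (0.38, adjusted p = 0.0192). FOXM1 rose to 97.0 ± 1.93 CPM in shRAD21, against 75.3 ± 4.32 in shNC (0.36, adjusted p = 0.00689), and MYBL2 to 161 ± 4.05 in shRAD21, against 115 ± 7.36 in shNC (0.48, adjusted p = 0.00757; SD, n = 3 each, edgeR). Of the 22 genes 7 were higher and 0 lower, 31.8% and 0%, beside 3.78% and 4.62% of all genes. In the overexpression 2 were higher and 2 lower, 9.09% each, beside 14.1% and 13.7% of all genes. There FOXM1 (0.18, adjusted p = 0.145), MYBL2 (0.11, adjusted p = 0.389) and CDKN1A (-0.22, adjusted p = 0.0513) were not called, E2F4 and NFYC rose at 0.55 and 0.52, and E2F7 and RBBP4 fell at -0.47 and -0.26.

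The 104 other genes of mitosis and its control, which include these transcription factors, gave 29 higher and 8 lower in the A549 knockdown, 27.9% and 7.69%, beside 14.4% and 10.9% of all genes. Their median log2 fold change was 0.13, against 0.00 over all genes. Among other kinetochore and centromere genes 12 of 27 were higher, with SKA2 (0.60, adjusted p = 9.81e-06) and KNL1 (0.47, adjusted p = 0.0024) at the front, and SPC24 and PMF1 led the 3 that were lower. ASPM (0.54) and BORA (0.52), which act at spindle poles and on AURKA, rose as TUBG1 fell at -0.27. CIT (0.41) and RACGAP1 (0.36) of cytokinesis rose as INCENP, the scaffold of the passenger complex, fell at -0.28. The checkpoint genes ZW10 (0.39) and ZWILCH (0.37) rose and MAD1L1 fell at -0.38. Of 7 other motors 1 rose, KIF14 (0.32), and of 5 entry kinases and phosphatases 1, WEE1 (0.42). Of 17 genes of the anaphase-promoting complex 2 rose, its inhibitor FBXO5 (0.47) and its subunit CDC23 (0.27), which is 11.8%, under the 14.4% of all genes.

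In H358 17 of the 104 were higher and 0 lower, 16.3% and 0%, beside 3.78% and 4.62% of all genes, with SKA3 (0.48, adjusted p = 0.000961), CENPM, TRIP13, ZW10, FAM83D, CEP55, WEE1 and CDC25A among them. In the overexpression 14 were higher and 6 lower, 13.5% and 5.77%, beside 14.1% and 13.7% of all genes, so the share higher is at the background. KIF18B (0.53, adjusted p = 0.0014) and KIFC1 of the motors, UBE2S (0.52, adjusted p = 0.0054) and ANAPC11 of the anaphase-promoting complex, TUBG1, FAM83D, RACGAP1, CENPI, CENPO, PKMYT1 and TRIP13 rose, while CENPC (-0.71, adjusted p = 0.00475), ASPM and ANAPC16 fell. TUBG1, ASPM, E2F7 and NFYC had opposite calls in the A549 knockdown and the overexpression.

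Of 34 genes for DNA replication in S phase 16 were higher and 0 lower in H358 shRAD21, a share of 47.1% higher, beside 3.78% and 4.62% of all genes, led by MCM6 (0.50, adjusted p = 0.000116) and UNG (0.44, adjusted p = 0.000727). In the A549 knockdown 9 were higher, led by RRM2 (0.51) and MCM6 (0.42), and 3 lower, led by CCNE1 (-0.61) and UNG (-0.32), which is 26.5% and 8.82%, beside 14.4% and 10.9%. In the overexpression 12 were higher and 0 lower, led by GINS4 (0.54) and CDC6 (0.35), which is 35.3% and 0%, beside 14.1% and 13.7% of all genes. The difference of A549 minus H358 was called negative for 10 of the 34 and positive for 0, beside 7.61% and 9.94% of all genes. Called or not, 26 of the 34 values were negative and 8 positive. For the 51 mitosis genes the difference was called positive for 6 and negative for 1.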

How the data were processed

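Total RNA for 18 libraries, in 6 groups of 3, was isolated with TRIzol and prepared with a VAHTS Universal V6 kit, per the labels' protocols; the sources used here do not give strand handling. The authors deposited 1 table per batch of raw counts of reads for each gene. The submitters' processing notes list hg38 with fastp, HISAT2 2.0.5 and featureCounts 1.5.0-p3, with no order. The 58735 genes are those of GENCODE 29.

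The knockdown and overexpression tables were tested separately in edgeR 4.0.16 (R 4.3.3) with a mean for every group, filterByExpr, TMM and the quasi-likelihood test. Adjusted p-values follow Benjamini-Hochberg across the 18939 and 15462 genes tested, and a call needs one under 0.05. CPM use TMM library sizes, and deviations on the log scale a prior count of 2. Intervals are 95%, and "SE" is the standard error of the log2 fold change. edgeR gave a biological coefficient of variation of 0.0864 (knockdown) and 0.0981 (overexpression). The fit was tested on simulated data with changes planted only in A549 shRAD21 or RAD21OE. They held no deviating library and no trend with GC content, so they cannot speak for those features here. The 51 genes, the other lists and the tests were chosen with earlier results of these data known. All 51 genes are named, with library values for those of each role with the smallest adjusted p (up to 2 per comparison), for the cohesin genes and for those that differed between lines. Of other lists, up to 2 genes rising and 2 falling are named, and FOXM1, MYBL2 and CDKN1A.

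Alternatives were size factors and the Wald test of DESeq2 1.42.0, limma-voom (limma 3.58.1), no filter or at least 10 CPM in 3 libraries, the replicate number as a block, GC content and exon length as offsets, a fit of 1 line's libraries, a joint fit of all 18, and leaving out each library. Figures were drawn with matplotlib 3.10.9.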

Additional observations from a re-analysis of the deposited data

Results flagged for a closer look

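For 7 of the 51 genes the change on knockdown differed between A549 and H358 by edgeR's test of the difference itself. Given as the log2 fold change in A549 minus that in H358, it was 0.61 for NUSAP1, 0.52 for KIF20B, 0.50 for ANLN, 0.37 for BUB1, 0.35 for CCNA2, 0.34 for TOP2A and -0.32 for CDC25B. The first 6 had positive values in A549, and among them BUB1, NUSAP1 and KIF20B had negative values in H358 that were not called. With offsets for GC content and exon length BUB1, KIF20B, TOP2A and CDC25B were not called. CDC20, HJURP, KIF20A and PTTG1 then had positive differences that were called, and BUB3 and CKS1B negative ones. The differences of NUSAP1 and TOP2A were also lost with the replicate block. The log2 fold change of RAD21 was -1.08 in A549 and -0.51 in H358. The part of that difference in these results was not tested.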

How the results depend on the processing

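No call of the 51 genes turned its direction under an alternative. In every alternative 8 of the 26 genes called in the A549 knockdown were called, ANLN, CCNA2, CCNB1, CCNB2, KIF20A, KIF20B, MKI67 and TOP2A, as were 0 of 3 in H358, 3 of 11 in the overexpression (CDC20, CKS1B and HJURP) and 1 of 7 for the difference between the lines (ANLN). With each library left out in turn, 14 to 36 genes were higher in A549 shRAD21, beside 10.2% to 23.2% of all genes. The lower ones numbered 1 to 2, beside 7.22% to 19.9%. Those higher in H358 shRAD21 numbered 0 to 1, beside 1.78% to 1.98%. Those higher in RAD21OE numbered 5 to 15, beside 7.02% to 17.9%, and those lower 0 to 2, beside 6.72% to 16.9%. A positive difference of A549 minus H358 was called for 1 to 26, beside 6.38% to 19.6%. A negative one was called for 1 to 9, beside 4.76% to 17.9%. The largest counts came without library 3 of A549 shRAD21 or of RAD21OE. The genes higher in H358 numbered 1 without a filter, 5 by DESeq2's Wald test and 14 with GC and length offsets. Beside these stood 2.19%, 4.97% and 8.72% of all genes. With the 6 H358 libraries alone 14 were higher and 2 lower, beside 12.7% and 13.3% of all genes. Those higher in A549 shRAD21 numbered 8 with the 6 A549 libraries alone, beside 10.3% of all genes. Those higher in RAD21OE numbered 16 with the offsets, beside 20.8%. With at least 10 CPM in 3 libraries 2 were lower in RAD21OE, beside 15.8% of all genes. A positive difference was called for 11 genes by the Wald test, beside 10.9% of all genes. A negative one was called for 2 without a filter, with at least 10 CPM, by limma-voom and with the offsets. Beside these stood 4.95%, 12.2%, 8.35% and 9.27% of all genes. The causes were not tested.

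Samples with the same replicate number showed little common deviation: the correlation of their deviations from the group means lay between -0.0369 and 0.0674. For samples with different numbers it lay between -0.0514 and 0.0338. With 3 libraries a group these values cannot settle whether the number pairs them. With the replicate block 20 genes were higher and 1 lower in A549 shRAD21, beside 12.5% and 9.49% of all genes. In H358 2 were higher and 0 lower, beside 2.68% and 3.25%, and in RAD21OE 10 and 1, beside 14% and 14.3%. A positive difference of A549 minus H358 was called for 4 and a negative one for 1, beside 8.06% and 6.15%. CCNB1 in H358 and the differences of NUSAP1 and TOP2A were among the calls lost. With the block and the offsets together 13 genes were higher in H358 and 16 in RAD21OE, beside 7.95% and 21% of all genes. A negative difference was then called for 2, beside 8.6%. Whether more depth or more libraries would change the calls was not tested.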
